A study of Mus musculus with 10 samples.

Results

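The subunits of the respiratory chain were examined in dorsal root ganglia (DRG) of embryos lacking *Dach1* in the neural crest. Members were the protein-coding genes whose mouse symbol names a subunit of complexes I to V or cytochrome c, and the rule found 100 genes among the 55414 genes of the count tables. Of these, 87 are encoded in the nucleus and 13 in the mitochondrial genome. Complex I had 35 nuclear and 7 mitochondrial members, complex II 4 nuclear members, complex III 9 and 1, complex IV 20 and 3, and complex V 18 and 2. Cytochrome c was represented by *Cycs* alone. *Ndufa4* and its paralogue *Ndufa4l2* were placed in complex IV, where present-day annotation puts them. *Atp5o* was listed under 2 identifiers, 1 of them at 0 counts in all libraries, so the members carry 99 distinct symbols.

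Bulk RNA of E18.5 DRG was sequenced from 5 control and 5 *WD1* cKO embryos. *WD1* cKO embryos were Wnt1Cre/+ and Dach1 flox/flox, and controls carried the same floxed alleles without Cre. Cre under *Wnt1* regulatory sequence acts in neural crest derivatives, which include the neurons and glia of the ganglion but not its vessels or blood, and the floxed line was kept on a mixed C57Bl/6J and CD1 background. Groups follow the sample titles, because the genotypes given in the labels are swapped relative to them. *Dach1* itself was at 35.0, 38.4, 41.6, 37.0 and 37.3 CPM (counts scaled to library size) in controls 1 to 5 and at 19.1, 20.7, 19.5, 20.2 and 20.4 CPM in *WD1* cKO embryos 1 to 5, a log2 fold change of -0.92 (SE 0.050, edgeR, adjusted p = 5.48e-06). The paper calls the controls littermates. The labels do not say which embryos shared a litter, so the test treats all embryos as independent.

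The respiratory chain passes electrons from NADH through complex I, or from succinate through complex II, to ubiquinone, complex III, cytochrome c and finally oxygen at complex IV. Complexes I, III and IV pump protons across the inner mitochondrial membrane, and complex V, the ATP synthase, uses the gradient to make ATP. The mitochondrial genome encodes core subunits of every complex except complex II, and all other subunits are made from nuclear genes and imported. Sensory neurons, with their long axons and ion gradients, draw heavily on this pathway.

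Copies elsewhere in the genome bear on which members can be counted. The mouse nuclear genome holds a long unprocessed copy of mitochondrial DNA on chromosome 1, annotated as a run of pseudogenes, and reads from a stretch present in both places cannot be placed by sequence. Transcripts of every member were therefore cut into all overlapping stretches of 100 bases, and a stretch was counted as copied when the same letters were found, on either strand, in a transcript of another gene that does not overlap the member (GENCODE vM21, GRCm38). The 5′ ends of *mt-Nd3* and its nuclear copy *Gm28438* are shown because they differ at a single base of the 345 aligned, T3C (base of *mt-Nd3* first, positions from 1 at the start of its transcript). The differing base is in capitals.
mt-Nd3: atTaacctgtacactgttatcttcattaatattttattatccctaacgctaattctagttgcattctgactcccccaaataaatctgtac
Gm28438: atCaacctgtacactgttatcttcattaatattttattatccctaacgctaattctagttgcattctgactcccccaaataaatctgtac

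*mt-Co1*, which encodes the catalytic core of complex IV, matches its copy *Gm29216* only over its 3′ part. *Gm13340* also holds copied stretches of *mt-Co1* and was not aligned. The place where *Gm29216* begins to match *mt-Co1* is shown, with the 3 differing bases A1060G, C1062A and A1066T in capitals. From there on the pair was identical, with 483 of 486 aligned bases the same.
mt-Co1: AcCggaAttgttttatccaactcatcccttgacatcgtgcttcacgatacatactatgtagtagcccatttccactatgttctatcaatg
Gm29216: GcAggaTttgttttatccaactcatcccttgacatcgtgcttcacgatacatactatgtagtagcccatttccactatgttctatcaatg

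The first 90 bases of *mt-Co3*, another core subunit of complex IV, stand for the members without any difference. All 783 aligned bases of *mt-Co3* were identical in *Gm28437*, as were 681 of 681 for *mt-Co2* in *Gm28661*, 678 of 678 for *mt-Atp6* in *Gm10925* and 294 of 294 for *mt-Nd4l* in *Gm10222*.
mt-Co3: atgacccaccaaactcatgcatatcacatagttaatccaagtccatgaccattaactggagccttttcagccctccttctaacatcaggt

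Most of the heavily copied genes were not counted. *mt-Co3* had 99.9% of its stretches copied, *mt-Co2* 99.5%, *mt-Atp6* 99.5%, *mt-Nd4l* 98.5% and *mt-Nd3* 97.6%. The first 4 were at 0 counts in all 10 libraries, and *mt-Nd3* was counted 22 times in total. For a gene whose reads can be placed, a count of 0 allows a level of up to 0.0862 to 0.152 CPM, depending on the library (3 counts, counting error only). For the heavily copied genes a count of 0 sets no such limit, since reads from copied stretches cannot be placed by sequence. *mt-Nd4* (60.8% copied), *mt-Co1* (30.8%) and *mt-Nd2* (3.19%) were all counted, as were *mt-Nd1*, *mt-Nd5*, *mt-Nd6* and *mt-Cytb*, in which no stretch was copied. *mt-Atp8* was the exception to this order, at 0 counts in every library with no copy among the annotated transcripts; copies in sequence without annotation were not searched. The 7 counted genes passed the filter of at least 10 counts in at least 5 libraries, and the other 6 did not.

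Counts under the copies of the uncounted genes were low beside those of the counted ones. *Gm10222* had 4 counts over all 10 libraries, *Gm28437* 29 and *Gm10925* 47, and the copies of *mt-Co2*, *Gm28661* and *Gm13341*, had 298 together, against 806486 for *mt-Nd1*. How the counting treated reads that fit several places is not given in the sources used here, and its part was not tested. No statement on the amount of RNA from *mt-Nd3*, *mt-Nd4l*, *mt-Co2*, *mt-Co3*, *mt-Atp6* or *mt-Atp8* is therefore possible, and both mitochondrial subunits of the ATP synthase are missing from all comparisons.

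**Figure D1:**
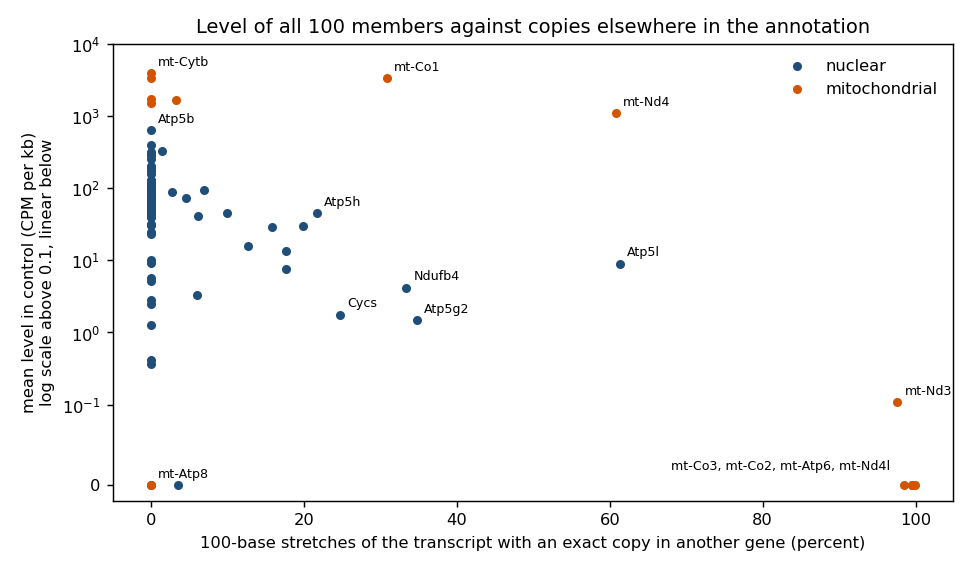
Mean level of all 100 members in the 5 controls (CPM per kb of transcript, logarithmic above 0.1 and linear below) against the percentage of their 100-base stretches with an exact copy in another annotated gene. Mitochondrial genes (orange) with 97.6% to 99.9% of stretches copied lie at or near 0, and those with 0% to 60.8% lie above 1000 CPM per kb apart from *mt-Atp8*.

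*mt-Nd3* and *Gm28438*, which differ at 1 base, varied in opposite directions between libraries. *mt-Nd3* was counted 0, 0, 4, 0 and 0 times in controls 1 to 5 and 0, 7, 11, 0 and 0 times in *WD1* cKO embryos 1 to 5. *Gm28438* was counted 131, 72, 5, 71 and 74 times in the same controls and 130, 2, 9, 75 and 180 times in the *WD1* cKO embryos. The 3 libraries with any *mt-Nd3* count (control 3, *WD1* cKO 2 and 3) were the 3 with the lowest *Gm28438* counts, and both groups held libraries of each kind. Which base the embryos carry was not tested, since the count tables hold no reads.

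**Figure D2:**
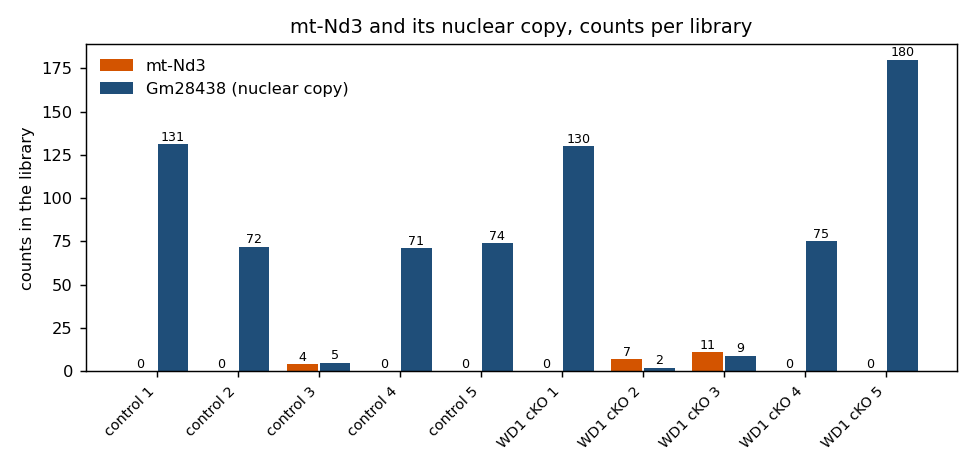
Counts of *mt-Nd3* (orange) and of its nuclear copy *Gm28438* (blue) in each library, with the count printed above each bar. *mt-Nd3* is above 0 in control 3 and *WD1* cKO 2 and 3, where *Gm28438* is at 2 to 9 counts, and *Gm28438* is at 71 to 180 counts in the other 7 libraries.

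None of the 7 counted mitochondrial genes passed the test between the groups. In bulk tissue, fewer cells of a type and less RNA per cell cannot be told apart. *mt-Co1* was at 5026, 4734, 4830, 5337 and 5767 CPM in controls 1 to 5 and at 4580, 5040, 4802, 5493 and 6570 CPM in *WD1* cKO embryos 1 to 5. The groups overlapped, and *WD1* cKO 5 was the highest library. Its log2 fold change was 0.044 (SE 0.091), the most positive of the 7. *mt-Nd6*, the only subunit gene on the light strand, had the most negative, -0.057 (SE 0.108). *mt-Cytb*, the mitochondrial subunit of complex III, was at 4776, 4113, 4221, 4680 and 4756 CPM in controls and 3998, 4298, 4133, 4464 and 5154 CPM in *WD1* cKO embryos, a log2 fold change of -0.032 (SE 0.070). The complex I genes *mt-Nd1*, *mt-Nd2*, *mt-Nd4* and *mt-Nd5* had log2 fold changes of 0.0073, 0.0065, -0.012 and -0.041. None of the 7 had an unadjusted p under 0.05, and the 95% confidence interval (CI) of all 7 lay within -0.3 and 0.3 on the log2 scale (4 of them within -0.2 and 0.2).

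The median log2 fold change of the 7 was -0.012, against 0.00022 over all 17490 genes tested, and its sign rested on single libraries. It was -0.091 without *WD1* cKO replicate 5, with 0 of 7 genes above 0, and 0.026 without *WD1* cKO replicate 1, with 6 of 7 above 0. Libraries with replicate numbers 4 and 5 had more mitochondrial RNA than those numbered 1 to 3 in both groups. For all 7 genes the mean log2 CPM was higher in numbers 4 and 5, by a median of 0.13 in control and 0.29 in *WD1* cKO embryos. Within numbers 1 to 3 all 7 genes were lower in *WD1* cKO embryos (median -0.074, 3 libraries a group), and within numbers 4 and 5 all 7 were higher (median 0.072, 2 libraries a group). This difference between number sets was not tested, and the labels do not call the numbers a batch. All 7 genes were measured in the same libraries and are not separate evidence. Erythroid markers moved the other way, with summed levels of 1070 to 2461 CPM in controls 1 to 3 and 155 to 182 CPM in controls 4 and 5, and of 509 to 1133 and 189 to 242 CPM in the same numbers of *WD1* cKO embryos. Their part in the mitochondrial levels was not tested.

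Per kb of transcript, the mitochondrial levels in control were ordered *mt-Cytb* (3941 CPM per kb), *mt-Nd1* (3347), *mt-Co1* (3326), *mt-Nd6* (1710), *mt-Nd2* (1680), *mt-Nd5* (1514) and *mt-Nd4* (1100). *mt-Nd1* and *mt-Co1*, and likewise *mt-Nd6* and *mt-Nd2*, were closer to each other than the SD between libraries. The order depends on the copied stretches. Divided by uncopied stretches only, *mt-Co1* had the highest level, 5139 CPM per 1000 stretches, above *mt-Cytb* with 4315, and *mt-Nd4* moved up from last place with 3020, above *mt-Nd6* (2113), *mt-Nd2* (1919) and *mt-Nd5* (1601). The *mt-Nd6* count was 0.308 to 0.361 of the *mt-Nd5* count in control and 0.303 to 0.330 in *WD1* cKO embryos. These neighbours lie on opposite strands with overlapping ends, and the strand setting of the counting is not given in the sources used here, so reads of one cannot be told from antisense reads of the other.

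Together the counted mitochondrial genes gave 17941 to 21037 CPM in control and 17296 to 23788 CPM in *WD1* cKO embryos. Nuclear members summed to 8202 to 8466 CPM in control and 8326 to 9038 CPM in *WD1* cKO embryos. The ratio of mitochondrial to nuclear members was 2.36 ± 0.145 in control and 2.31 ± 0.238 in *WD1* cKO embryos (SD, n = 5 each), and the groups overlapped. *WD1* cKO 5 was highest for both sums and was also the deepest library, with 34796562 counts. Without it the nuclear sums of *WD1* cKO embryos, 8464, 8383, 8437 and 8326 CPM, lay within the range of control.

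**Figure D3:**
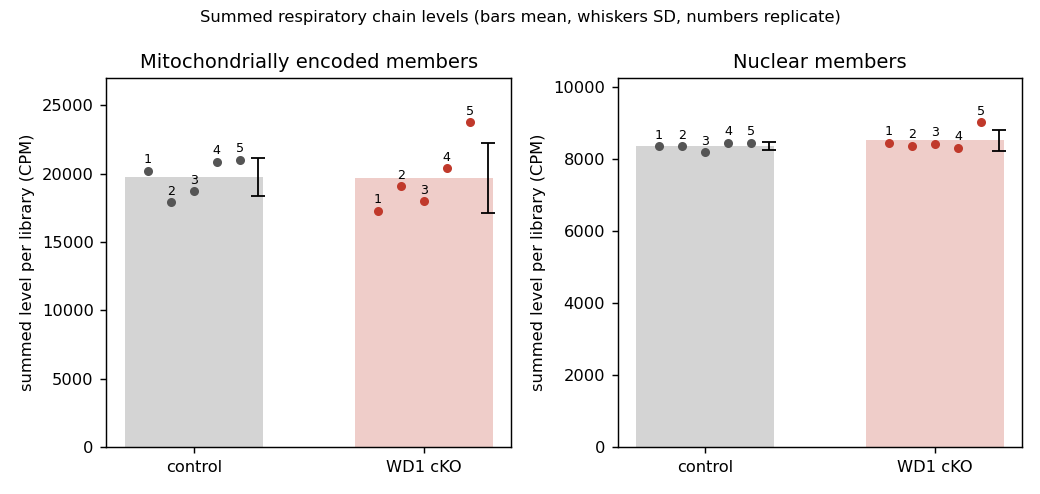
Summed CPM of the mitochondrially encoded members (left) and the nuclear members (right) in each library. Bars are group means, whiskers SD and numbers the replicate. The points of the groups overlap in both panels, and *WD1* cKO 5 is the highest in both, at 23788 and 9038 CPM.

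Of the 87 nuclear members, 83 passed the filter. *Cox7b2* (0.196 CPM in control), *Cox8b* (0.152) and *Cox8c* (1 count in 1 library), isoforms known from testis or from heart and muscle, did not, nor did the second *Atp5o* entry. No member, nuclear or mitochondrial, had an adjusted p under 0.05 in the edgeR quasi-likelihood F-test, where 0.04% of all genes did (7 of 17490, the lowest adjusted p among members being 1.00). DESeq2's Wald test called 0 members and 19 genes. At an unadjusted p under 0.05, 1 member was higher in *WD1* cKO embryos (2.12% of all genes were) and 1 was lower (2.38% of all genes). Of the 90 members tested, 1 had groups that did not overlap, with *WD1* cKO higher (0.497% of all genes), and none did with *WD1* cKO lower (0.566%). Of the nuclear members, 65 of 83 had a 95% CI within -0.2 and 0.2 on the log2 scale, and 73 within -0.3 and 0.3. Over all 17490 genes tested these counts were 7762 and 10856. Over the 6859 genes with a mean log2 CPM above 5 they were 5625 and 6534.

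The nuclear members as a list lay slightly above 0. Their median log2 fold change was 0.039, and 68 of 83 were above 0 (81.9%, against 50.1% of all genes and 46.4% of the 6859 genes with a mean log2 CPM above 5). All 83 were measured in the same libraries and are not separate evidence. The shift was smaller without 1 library. Without *WD1* cKO replicate 5 the median was 0.010 and 46 of 83 were above 0. Leaving out any other library gave medians from 0.029 to 0.044. By complex the medians were 0.022 for complex I, 0.0079 for complex II, 0.027 for complex III, 0.042 for complex IV and 0.047 for complex V, with 29 of 35, 3 of 4, 7 of 9, 13 of 17 and 15 of 17 members above 0.

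**Figure D4:**
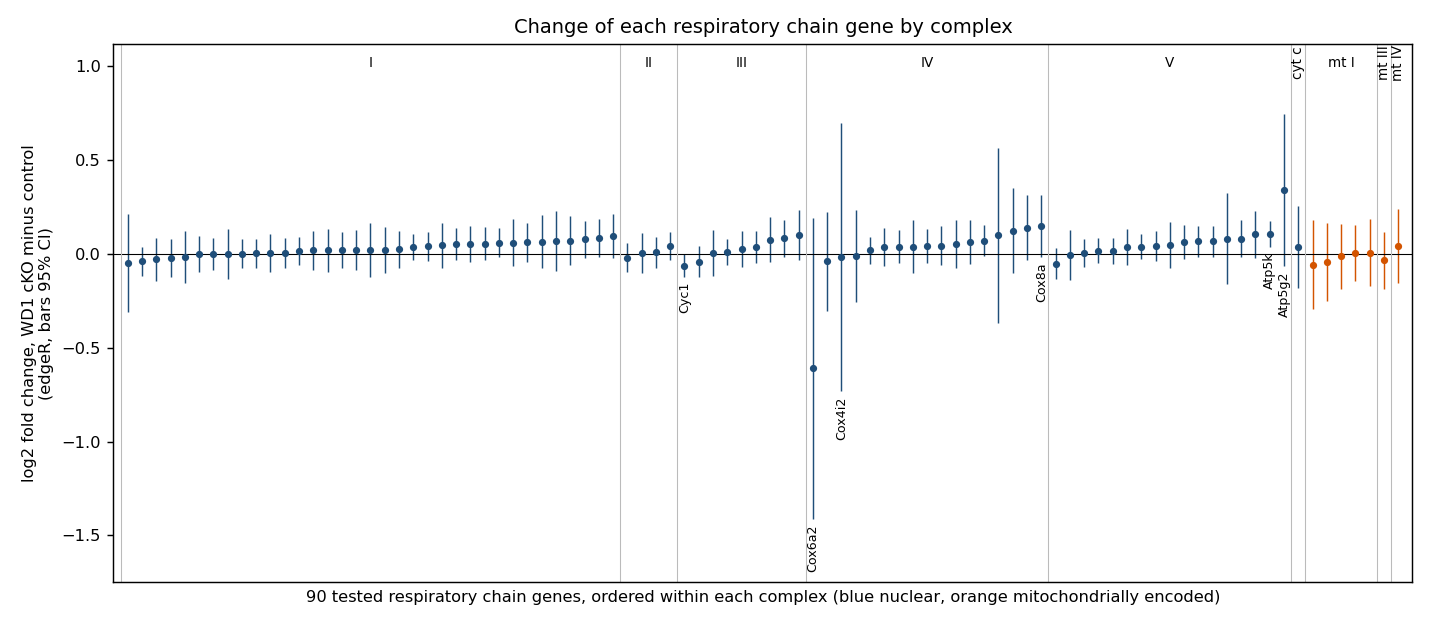
Log2 fold change (*WD1* cKO minus control) of each of the 90 tested members with its 95% CI, ordered within complexes, nuclear in blue and mitochondrially encoded (mt) in orange. Most points lie between -0.1 and 0.15, *Atp5k* and *Cyc1* are the intervals that leave out 0, and the widest intervals belong to isoforms of complex IV with few counts.

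*Atp5k*, subunit e of the ATP synthase, which helps to pair the synthase into dimers, was the member with groups apart. It was at 76.0, 74.2, 75.7, 75.3 and 77.5 CPM in controls 1 to 5 and at 85.4, 79.2, 81.6, 78.5 and 83.5 CPM in *WD1* cKO embryos 1 to 5. Every *WD1* cKO library was above every control. The log2 fold change was 0.11 (SE 0.031, 95% CI 0.040 to 0.18), with an unadjusted p of 0.0047 and an adjusted p of 1.00 in edgeR. The exact permutation test (two-sided, mean log2 CPM) gave p = 0.0079, the smallest that 5 against 5 allows. Groups that are apart always give this value, and *Atp5k* was named for it among 90 members tested, so it is not separate evidence. The log2 fold change ranged from 0.091 to 0.12 over all alternatives, with an unadjusted p under 0.05 in all of them and a lowest adjusted p of 0.468.

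*Cyc1*, the cytochrome c1 subunit that hands electrons from complex III to cytochrome c, was the member with a lower value. It was at 146, 146, 146, 144 and 140 CPM in controls and at 139, 137, 138, 135 and 143 CPM in *WD1* cKO embryos. *WD1* cKO 5 lay above control 5, so the groups overlapped. The log2 fold change was -0.061 (SE 0.027, 95% CI -0.12 to -0.0023), with an unadjusted p of 0.043 and an adjusted p of 1.00, and the exact permutation test (two-sided) gave p = 0.0159. *Cyc1* was named for its unadjusted p in the same values, so the permutation p is not separate evidence. Its log2 fold change stayed below 0 under every alternative, from -0.077 to -0.051, with an unadjusted p under 0.05 in 7 of 17 fits.

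**Figure D5:**
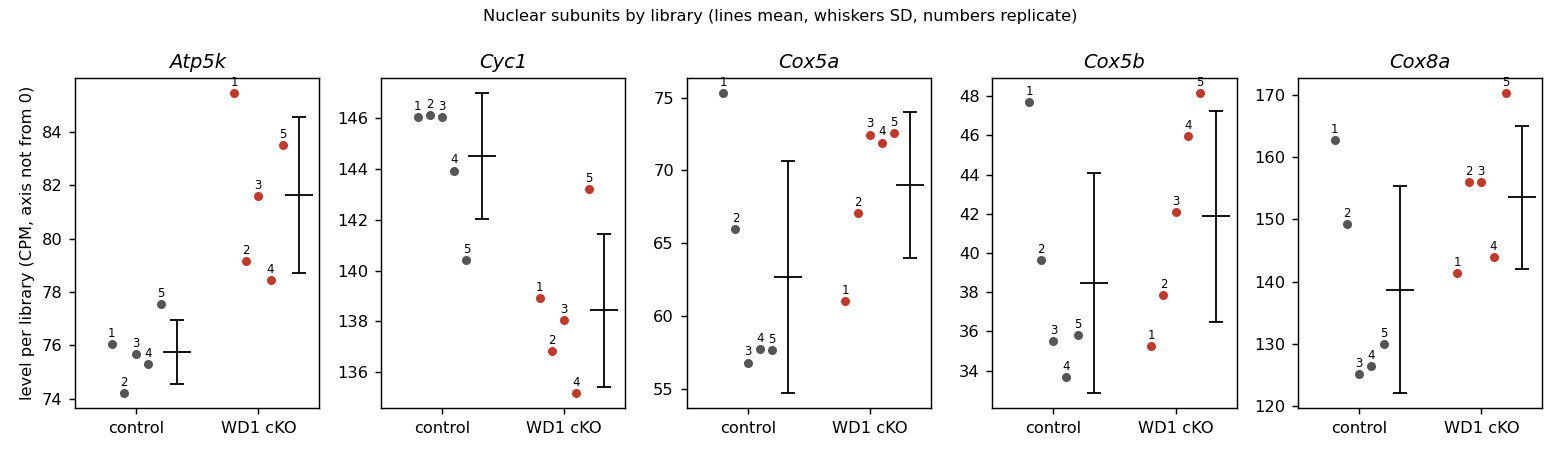
CPM per library of *Atp5k*, *Cyc1*, *Cox5a*, *Cox5b* and *Cox8a*, with the axes not starting at 0. Lines are means, whiskers SD (n = 5) and numbers the replicate. The groups are apart for *Atp5k* and overlap for the others, and control 1 is the highest control for the 3 *Cox* genes.

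*Cox8a*, *Cox5a* and *Cox5b* had the most positive log2 fold changes among nuclear members with a mean of at least 10 CPM, and none passed the test. *Cox5a*, on the matrix side of complex IV, was at 75.3, 66.0, 56.8, 57.7 and 57.6 CPM in controls and 61.0, 67.0, 72.5, 71.9 and 72.6 CPM in *WD1* cKO embryos (0.14, SE 0.079). *Cox5b*, its zinc-binding neighbour, was at 47.7, 39.6, 35.5, 33.7 and 35.8 CPM in controls and 35.3, 37.9, 42.1, 46.0 and 48.1 CPM in *WD1* cKO embryos (0.13, SE 0.104). In all 3 genes, *Cox8a* included, control 1 was the highest control and *WD1* cKO 1 the lowest *WD1* cKO library. *Cox8a*, the ubiquitous form of a small membrane subunit, ranged from 125 to 163 CPM in control and from 141 to 170 CPM in *WD1* cKO embryos (0.15, SE 0.076). Their spread between libraries was wide for their level. The within-group SD of log2 CPM was 0.146 for *Cox5a*, 0.193 for *Cox5b* and 0.141 for *Cox8a*, against a median of 0.071 over the nuclear members and 0.072 over all genes with a mean log2 CPM above 5. Over the alternatives the log2 fold change of *Cox5a* ranged from 0.11 to 0.21 (0.21 without control 1). That of *Cox5b* ranged from 0.065 without *WD1* cKO 5 and 0.080 without control 4 to 0.21 without control 1, and that of *Cox8a* from 0.10 to 0.21. An unadjusted p under 0.05 was found in 3, 1 and 2 of 17 fits for *Cox5a*, *Cox5b* and *Cox8a*, without control 1 in all 3 genes.

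At the other end were *Atp5a1*, the catalytic-head alpha subunit of the ATP synthase, with a within-group SD of 0.026, and *Cyc1* with 0.028, so that a difference of -0.061 in *Cyc1* was larger beside its spread than one of 0.14 in *Cox5a*. The 7 mitochondrial genes had SDs of 0.12 to 0.20.

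Levels differed far more between subunits than between groups. In complex I, which oxidises NADH, *Ndufa7* had the highest level per kb in control (105 ± 3.40 CPM per kb, SD, n = 5) and *Ndufb4* the lowest as counted (4.20 ± 0.668), with 33.4% of its stretches copied elsewhere. Nuclear core subunits, which carry the flavin and the iron-sulphur clusters and are conserved from bacteria, were spread through the order. *Ndufv1* was at 78.0, *Ndufs7* at 57.6, *Ndufv2* at 50.6, *Ndufs1* at 49.5, *Ndufs8* at 46.6 and *Ndufs3* at 30.2 CPM per kb. The log2 fold changes of these 6 lay between -0.029 (*Ndufs7*) and 0.056 (*Ndufs1*). *Ndufc1*, a small accessory subunit, had the most positive log2 fold change of the complex (0.096, SE 0.054) and *Ndufb4* the most negative (-0.049, SE 0.119).

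Complex II, succinate dehydrogenase, is shared with the TCA cycle and is made from nuclear genes alone. Per kb *Sdhb*, its iron-sulphur subunit, was highest (120 ± 2.52 CPM per kb) and *Sdhc*, a membrane anchor, lowest (24.6 ± 1.18). *Sdha*, the flavoprotein, was at 226 to 252 CPM in control and 230 to 245 CPM in *WD1* cKO embryos. All 4 had log2 fold changes between -0.020 (*Sdha*) and 0.044 (*Sdhb*) and a 95% CI within -0.2 and 0.2.

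In complex III, *Uqcrh*, the hinge protein between cytochromes c1 and c, was highest per kb (174 ± 11.4 CPM per kb) and *Uqcrb* lowest as counted (28.8 ± 1.57), with 15.8% of its stretches copied. *Uqcrb* also had the most positive log2 fold change of the complex (0.10, SE 0.061). The core proteins *Uqcrc1* and *Uqcrc2* had -0.040 (SE 0.038) and 0.039 (SE 0.039), and *Uqcrfs1*, the Rieske iron-sulphur protein, 0.010 (SE 0.032). *Cycs*, the carrier between complexes III and IV, was at 5.51 ± 0.605 CPM in control and 5.65 ± 0.576 CPM in *WD1* cKO embryos (0.038, SE 0.10). Its level per kb was 1.76 CPM per kb, and 24.7% of its stretches had an exact copy elsewhere.

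Several complex IV and V subunits exist as alternative isoforms, and in DRG a single form led in each case. *Cox4i1* was at 310 CPM per kb in control and *Cox4i2*, a form known from lung, at 2.49. *Cox6a1* was at 332 and the heart and muscle form *Cox6a2* at 1.27, *Cox6b1* at 292 and the testis form *Cox6b2* at 10.1, and *Cox7a2* at 156 with its relative *Cox7a2l*, a supercomplex factor, at 45.9 and the heart and muscle form *Cox7a1* at 2.85. *Ndufa4* was at 291 and *Ndufa4l2* at 5.71, and *Cox8a* at 252 with *Cox8b* at 0.421. No minor form passed the test. *Cox4i2* had a log2 fold change of -0.015 (SE 0.329), *Cox6b2* -0.038 (SE 0.122), *Cox7a1* 0.10 (SE 0.214) and *Ndufa4l2* -0.0095 (SE 0.112).

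*Cox6a2* had the most negative log2 fold change of all members. It was counted 27, 10, 14, 14 and 32 times in controls 1 to 5 and 8, 16, 24, 14 and 13 times in *WD1* cKO embryos 1 to 5. The groups overlapped, and controls 1 and 5 were the highest libraries in CPM (1.32 and 1.41). The log2 fold change was -0.61 (SE 0.370, 95% CI -1.41 to 0.19), which did not pass the test. It ranged from -0.79 to -0.36 over the alternatives, and was -0.36 without control 5. Of the 8 skeletal muscle markers, 7 passed the filter and all 7 had negative log2 fold changes (median -0.53, none with a p under 0.05). Their summed level was 132, 58.3, 119, 29.6 and 211 CPM in controls and 59.8, 62.0, 115, 75.3 and 54.8 CPM in *WD1* cKO embryos, highest in controls 5 and 1 as for *Cox6a2*. Their part in the *Cox6a2* value was not tested.

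In complex V, *Atp5b*, the catalytic beta subunit, had the highest level of all nuclear members, 640 ± 8.56 CPM per kb, and *Atp5g2* the lowest of the complex as counted, 1.47 ± 0.285, with 34.7% of its stretches copied. *Atp5g1*, *Atp5g2* and *Atp5g3* encode the same mature c subunit of the membrane ring from different precursors, and *Atp5g3* led with 404 CPM per kb against 3.34 for *Atp5g1*. In CPM the gap was smaller, 292 against 16.4 in control, since the *Atp5g1* length includes long alternative exons. *Atp5g3* had a log2 fold change of 0.018 (SE 0.032), *Atp5g1* 0.10 (SE 0.059) and *Atp5g2* 0.34 (SE 0.187). *Atp5g2* was counted 20 to 30 times in control and 28 to 40 times in *WD1* cKO libraries, and its groups overlapped in CPM. *Atp5a1* and *Atp5b* had 0.017 (SE 0.031) and 0.0057 (SE 0.035). *Atp5d*, the delta subunit of the stalk, had the most negative value of the complex, -0.051 (SE 0.038).

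Low levels per kb coincided with copies elsewhere. The 10 tested nuclear members with at least 10% of stretches copied had a median of 11.2 CPM per kb in control, the 7 with fewer 73.0, and the 66 with none 76.1. The ranges overlapped, from 1.47 to 45.3 in the first and from 1.27 to 640 in the last. *Atp5l* had the most copying of the nuclear members (61.3%), followed by *Atp5g2* (34.7%), *Ndufb4* (33.4%), *Cycs* (24.7%), *Atp5h* (21.7%), *Ndufs3* (19.9%), *Ndufa12* (17.7%), *Cox7c* (17.6%), *Uqcrb* (15.8%) and *Ndufs5* (12.7%). For these 10 the level, and so its place among the other subunits, is uncertain. The same holds for *Atp5g1*, where 287 of 4831 stretches were copied (5.94%), a share kept low by its long exons. The length used is that of all exons of a gene's basic protein-coding transcripts, so *Ndufb2*, *Atp5g1* and *Cycs*, with long alternative exons, also rank low per kb.

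Nuclear respiratory chain genes are known targets of NRF1, whose motif is common in their promoters. A RefSeq promoter (300 bases around the start site, GRCm38.p6) was at hand for 67 nuclear members. The letters GCGCNTGCGC, on either strand, were in 17 of the 67 (25.4%) and in 7.44% of 16500 protein-coding genes. CCGGAAG, bound by ETS factors such as GABP, was in 23.9% and 13.4%, AAGATGGCG, bound by YY1, in 10.4% and 2.25%, and TATAAA in 10.4% and 14.3%. The NRF1 letters can overlap their own reverse complement, and a match is a description of the sequence, not a binding site. *Atp5k* is shown whole (chr5:108434350-108434649, minus strand) since its groups were apart. Parts of the *Uqcrc1*, *Cox6a1* and *Sdha* promoters, with 2, 2 and 3 matches, are shown as examples of several matches. *Ndufb4* also held 3 and is not shown. Capitals mark the NRF1 letters on either strand.
Atp5k promoter: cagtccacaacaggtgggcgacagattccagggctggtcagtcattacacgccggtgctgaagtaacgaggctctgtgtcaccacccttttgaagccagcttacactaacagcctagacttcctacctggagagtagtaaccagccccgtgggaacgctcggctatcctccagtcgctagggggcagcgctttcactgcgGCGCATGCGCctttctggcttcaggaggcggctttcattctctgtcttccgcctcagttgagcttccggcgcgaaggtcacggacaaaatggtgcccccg
Uqcrc1: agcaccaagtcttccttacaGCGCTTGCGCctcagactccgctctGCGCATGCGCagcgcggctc
Cox6a1: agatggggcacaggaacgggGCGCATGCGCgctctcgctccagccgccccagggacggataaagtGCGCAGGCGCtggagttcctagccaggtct
Sdha: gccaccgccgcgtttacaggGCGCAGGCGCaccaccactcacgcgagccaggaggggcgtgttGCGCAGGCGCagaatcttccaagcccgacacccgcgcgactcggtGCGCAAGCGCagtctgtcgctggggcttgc

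*Uqcrc1*, *Cox6a1* and *Sdha* had log2 fold changes of -0.040, 0.039 and -0.020, none past the test. The *Atp5k* promoter was also 1 of the 16 with the ETS letters.

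Genes that build or supply the chain were compared in the same fit. Of 47 assembly factors, 44 were tested, with a median log2 fold change of 0.030. Among them 31 were above 0, and none had an adjusted p under 0.05. At an unadjusted p under 0.05, none was lower in *WD1* cKO embryos (2.38% of all genes were) and 1 was higher (2.12% of all genes). That 1 was *Atpaf1*, a chaperone of the ATP synthase beta subunit, at 7.48 ± 0.616 CPM in control and 8.37 ± 0.283 CPM in *WD1* cKO embryos (0.16, SE 0.072). Of 49 large-subunit proteins of the mitochondrial ribosome, which translates the 13 mitochondrial genes, 48 were tested (median 0.011, 30 above 0). *Mrpl13* was the one with an unadjusted p under 0.05, at 24.9 ± 0.935 CPM in control and 27.2 ± 1.77 CPM in *WD1* cKO embryos (0.13, SE 0.052). A count of 1 in each of these lists lay near the share over all genes and is not a result about either list. The 14 genes of mitochondrial transcription and replication (median 0.0018), the 10 regulators of mitochondrial biogenesis (0.019), the 13 TCA cycle genes (0.024) and the 17 glycolysis genes (-0.015) had no member with an unadjusted p under 0.05.

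Markers of the cells in the ganglion were compared in the same fit. The 7 sensory neuron markers had a median log2 fold change of -0.036, and none had an adjusted p under 0.05 in edgeR. The 6 glial markers had a median of 0.048, the 6 mural markers 0.016, the 4 endothelial markers 0.021, the 4 macrophage markers 0.014 and the 5 erythroid markers -0.94, with no unadjusted p under 0.05 in these last 5 lists. Sensory neuron markers summed to 6146 to 6564 CPM in control and 6151 to 6418 CPM in *WD1* cKO embryos, and glial markers to 897 to 1051 and 869 to 1134 CPM. All 13 passed the filter, so markers of both the neurons and the glia of the ganglion were detected. None of the 5 spinal cord markers passed the filter. They summed to 0.07 to 1.32 CPM in 9 libraries and to 15.2 CPM in control 3. Of the brown fat markers *Cidea* alone was tested (-0.025), and the pair summed to 1.72 to 3.70 CPM.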

How the data were processed

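Stranded poly(A) mRNA libraries of E18.5 DRG were made from 5 controls and 5 *WD1* cKO embryos. Per the labels and methods, the authors used STAR 2.7.8a on GRCm39, then featureCounts 2.0.1, and deposited raw whole-number counts. Library totals were 20465132 to 27528784 (control) and 19757596 to 34796562 (*WD1* cKO). Strand setting and multi-mapping rule are not given in the sources used here. No pair of libraries of a group looked like 1 library deposited again (chi-square over degrees of freedom of 4.33 to 15.7).

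Symbols, gene types and exon lengths were taken from GENCODE vM21 (GRCm38), matched by identifier for 52081 of 55414 genes. Subunits whose symbols the rule does not cover (such as *Ndufab1*) were left out. The filter asked for 10 counts or more in 5 or more libraries and left 17490 genes. These were scaled by TMM and compared in edgeR 4.0.16 (R 4.3.3) with the quasi-likelihood F-test with no block or covariate. P-values were adjusted by Benjamini-Hochberg over all genes tested. Levels are CPM after TMM scaling, with the SD over 5 libraries, and 95% CIs are from the SE and the degrees of freedom of the fit. On simulated data of 17490 genes, recovery was 37.9% at a log2 change of 0.3, 73.1% at 0.5 and 97% at 1. The changed genes numbered 66, 67 and 67 and were drawn only from genes above a minimum mean count. Recovery of members with few counts was therefore not simulated.

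The members, gene lists, motifs and alternatives were chosen with earlier results of these data known. Genes named with values are *Dach1*, the mitochondrial members, the members with the highest and lowest level per kb of each complex, the 5 highest and lowest log2 fold changes, members with an unadjusted p under 0.05 or with groups apart, alternative isoforms and members that failed the filter. Core subunits and members named for a range, a spread, a copy or a promoter were added after their values were seen. The alternatives were DESeq2 size factors, scaling over nuclear genes, no filter, a replicate block, a term for replicate numbers 1 to 3 against 4 and 5, DESeq2 1.42.0 and leaving out each library. Some genes are not reported here.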

Additional observations from a re-analysis of the deposited data

Results flagged for a closer look

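In groups of 5, a library was singled out when the distance to its neighbour exceeded 0.71 of the group's whole range. Of 72 groups of the genes listed by rule, 6 had such a library, and chance gives about 1 in 20 (3.6 of 72). *WD1* cKO 5 was the highest of its group for *Cox6b1* (205 CPM, the others at 180 to 184) and for *Uqcrh* (112 CPM, the others at 95.5 to 100.2). *WD1* cKO 3 was the highest for *Ndufa4l2* (6.65 CPM, the others at 4.70 to 5.20). Among controls, replicate 4 was the highest for *Cox7a1* (2.54 CPM, the others at 1.19 to 1.41), replicate 5 for *Cox7a2* (110 CPM, the others at 99.4 to 102), and replicate 3 was the lowest for *Atp5b* (1199 CPM, the others at 1230 to 1242).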

How the results depend on the processing

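No member and none of the genes of the 6 pathway lists had an adjusted p under 0.05 under any of 16 alternatives, and the lowest adjusted p of a named member was 0.468. The count of members with an unadjusted p under 0.05 and a higher value in *WD1* cKO embryos, 1 as reported, was 3 without the filter, 2 with the replicate block, 3 with the term for replicate numbers, and 1 to 4 when each library was left out (4 without control 1). The count with a lower value, also 1, was 0 without the filter, 0 with the replicate block and 0 to 1 when each library was left out. Members with groups apart numbered 1 to 2 when each library was left out, where 4 against 5 libraries are apart more easily in any gene. Calls over all genes also changed with the fit, as given below for the block. The counts of members under the alternatives are therefore not a result about the members. The nuclear median log2 fold change was 0.010 to 0.044 when each library was left out and 0.037 to 0.049 under the other fits. The mitochondrial median was -0.091 to 0.026 when each library was left out and turned to 0.0074 without the filter. Within replicate numbers, an alternative chosen after seeing the data, the nuclear medians were 0.029 (1 to 3) and 0.044 (4 and 5). The replicate numbers were not taken to pair the samples, since the deviations of same-numbered libraries from their group means correlated at 0.33, 0.040, 0.32, 0.35 and 0.39 for numbers 1 to 5, and number 2 was under 0.1. Numbers 2 and 4 correlated better with another number, and the block took the genes with an unadjusted p under 0.05 from 787 to 1241. The 36 named genes tested moved by less than their spread between libraries in 576 of 576 values. Leaving out 1 of 5 libraries can hardly move a value by more than that, so this count is not a test of stability. Depth limits the isoforms with few counts, and the copied mitochondrial genes cannot be assessed at any depth given here.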

Other observations

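The mitochondrial ribosomal RNAs *mt-Rnr1* and *mt-Rnr2*, which are not subunits and carry short poly(A) tails, summed to 425 to 732 CPM in control and 542 to 857 CPM in *WD1* cKO embryos, with overlapping groups. Summed complex IV levels were the ones with the widest difference between group means, 1380 ± 38.7 CPM in control and 1436 ± 65.9 CPM in *WD1* cKO embryos (SD, n = 5 each). The groups overlapped, and *WD1* cKO 5 was the highest at 1552 CPM. Complex II differed least, at 566 ± 15.0 and 568 ± 15.9 CPM.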
